A study of Homo sapiens with 6 samples.

Results

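Intestinal iron handling was followed in Caco-2 cells through the genes of iron uptake, storage, export and hormonal control. The 9 genes named for this purpose were TFRC, SLC11A2, CYBRD1, SLC40A1, HEPH, FTH1, FTL, HAMP and IREB2, and every probe set annotated with only 1 of these symbols was taken. Such probe sets were found for 7 of the 9 genes, 19 probe sets among the 41091 with a single gene symbol. FTH1, the ferritin heavy chain, and IREB2, an iron regulatory protein, had none in the annotation used here and were not analysed here.

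Caco-2 cells come from a human colon carcinoma and, once confluent, turn into a polarised sheet that resembles the absorptive lining of the small intestine. The cells had grown for 14 days on a permeable support, which was then set over THP-1 monocytic leukaemia cells, which 4 days of phorbol myristate acetate (PMA) in plates of 12 wells had turned into macrophage-like cells. RNA of the Caco-2 cells was measured on Affymetrix arrays at 0, 1, 3, 6, 24 and 48 h of this coculture, and each of these times is represented by a single unreplicated array. No array of Caco-2 cells kept alone for the same time was analysed here, so time in culture and the presence of THP-1 cells cannot be told apart. Values are MAS5 signals on a linear scale, and signals under 16.2, the median of all values, were set to that floor before log2 was taken.

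Enterocytes take up dietary iron at their apical face, where the reductase CYBRD1 makes ferrous iron and SLC11A2 (DMT1) carries it in. Iron is held in ferritin, made of FTH1 and FTL chains, or leaves through ferroportin (SLC40A1) at the basolateral face with the help of the ferroxidase hephaestin (HEPH). The transferrin receptor TFRC brings in iron from the blood side. Hepcidin (HAMP), a peptide hormone made mainly by the liver, binds ferroportin and causes its breakdown. Iron regulatory proteins bind stem-loops, the iron responsive elements, in several of these mRNAs and set their translation or stability, so a protein can change with no change in its mRNA.

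Control sequences of 3 genes are shown because the measured genes are known to be controlled through them: the hepcidin promoter, the TFRC promoter and the start of the FTL mRNA. They are RefSeq sequences of build GRCh38.p14. Capitals mark letters searched for by pattern, which describe these windows and show no binding.
HAMP promoter, chr19:35282378-35282527, plus strand: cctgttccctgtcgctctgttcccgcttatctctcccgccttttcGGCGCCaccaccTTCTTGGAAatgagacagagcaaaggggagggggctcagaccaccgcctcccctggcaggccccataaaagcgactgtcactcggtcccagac
TFRC promoter, chr3:196082091-196082210, minus strand: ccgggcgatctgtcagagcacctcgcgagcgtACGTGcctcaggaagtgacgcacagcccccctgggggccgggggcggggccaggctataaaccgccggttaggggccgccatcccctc
FTL transcript bases 25 to 50, chr19:48965333-48965358, plus strand: gtctcttgcttcaaCAGTGTttggac

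In HAMP the capitals are GGCGCC, the core of the bone morphogenetic protein response element, at bases 105 to 100 before the transcription start, and TTCTTGGAA, a match to the STAT pattern TTCNNNGAA, at bases 93 to 85. GGCGCC was found in 19.2%, TTCNNNGAA in 7.66% and both in 0.766% of 35116 promoter windows of 300 bases, searched on both strands. In TFRC the capitals are ACGTG, the core of the hypoxia response element, at bases 88 to 84 before the start, which 21.4% of the windows held. The core variant GCGTG, in 36.5% of the windows, occurred in 3 of the 4 windows of SLC11A2, in 1 of the 2 of CYBRD1 and in that of FTL. FTL also held ACGTG, and TFRC also held GGCGCC. In FTL the capitals are the loop of the iron responsive element, CAGTGN, at transcribed bases 39 to 44, and 6.36% of all transcript starts held these letters on the sense strand in their first 50 bases, that of HAMP among them. The window of SLC40A1 and all 3 windows of HEPH held none of these patterns. The loop pattern was searched in the first 50 transcribed bases only. An iron responsive element further along a transcript would thus not be seen.

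Of the 7 iron handling genes, 6 stayed within 2-fold of their 0 h signal at every time through 48 h of coculture, and HAMP passed that limit at 6 h. The RNA is that of the whole monolayer, so fewer cells of a type and less RNA per cell cannot be told apart. Each gene was represented by its brightest probe set, taken by mean log2 signal, and a gene was counted as higher or lower at a difference of at least 2-fold from 0 h with the brighter array above the floor. All 7 genes were above the floor on at least 1 array and 6 on all 6 arrays. HAMP was counted as higher at 6 h, which is 1 of 7 genes, against 4.23% of all 14623 measured genes at that time. None of the 7 was counted as higher at 1, 3, 24 or 48 h, when 1.90%, 3.10%, 3.95% and 3.82% of all measured genes were. None was counted as lower at any time, against 1.44%, 3.52%, 6.45%, 6.14% and 6.14% at 1, 3, 6, 24 and 48 h. Over all times together, 9.03% of measured genes were higher at some time, 12.9% lower and 21.9% either, against 1, 0 and 1 of the 7. The median log2 ratio of the 7 genes to 0 h was 0.13, 0.02, 0.10, 0.04 and 0.01 in the same order, and that of all measured genes was 0.00, -0.02, -0.04, 0.00 and -0.01. With 1 array per time there is no test and no p-value, and the 0 h array is shared by every ratio. Across all genes with several probe sets above the floor, the log2 ratios of probe sets of 1 gene spread by a robust SD of 0.36 at 1 h to 0.48 at 48 h. That spread holds differences between transcripts and no variation between cultures.

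**Figure D1:**
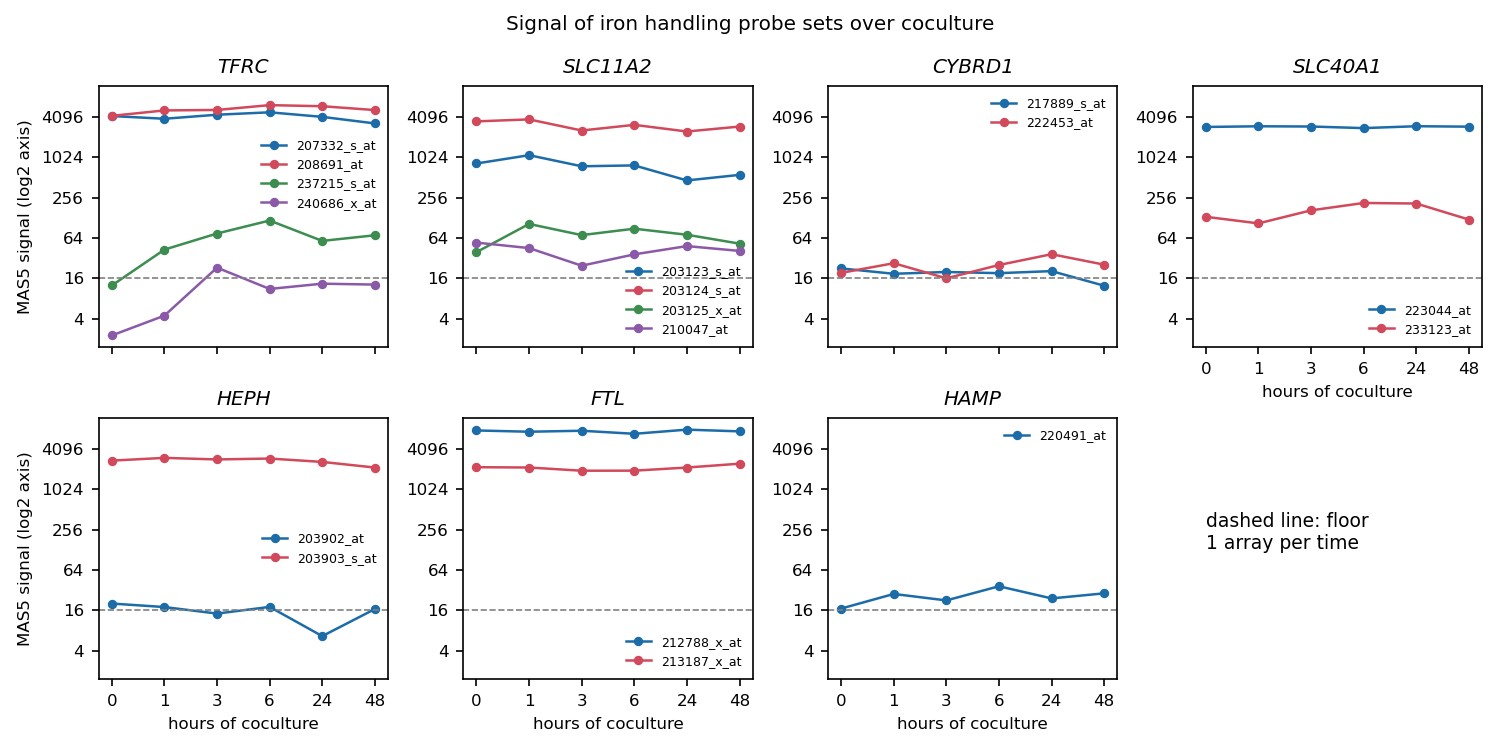
MAS5 signal (log2 axis) of the 17 iron handling probe sets that passed the floor on at least 1 array, against hours of coculture, with 1 point per array and the floor of 16.2 as a dashed line. The brightest probe sets of TFRC, SLC11A2, SLC40A1, HEPH and FTL stay at 2180 or higher on every array, while CYBRD1 and HAMP lie near the floor.

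Apical uptake genes were the first group. SLC11A2, the ferrous iron importer (chromosome 12, 50952263 to 51028886 in GRCh38.p14, as for all gene positions here), had signals of 3549, 3802, 2593, 3150, 2505 and 2970 at 0, 1, 3, 6, 24 and 48 h in its brightest probe set, 203124_s_at. The 1 h array was highest and the 24 h array lowest, at log2 ratios to 0 h of 0.10 and -0.50. A further probe set, 203123_s_at, had signals of 833, 1109, 757, 780, 465 and 563. Its highest and lowest arrays were the same as those of the brightest one, and its log2 ratio was -0.84 at 24 h, short of 2-fold.

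The dim probe sets of SLC11A2 had other highest and lowest arrays than the bright ones, except for 203125_x_at, which was also highest at 1 h. 203125_x_at had signals of 39.4, 104, 70.8, 88.3, 71.7 and 52.8, so the 0 h array was lowest. The signal at 1 h was 2.63-fold that at 0 h, and the signal at 6 h 2.24-fold. With the 1 h array as the baseline its log2 ratio at 6 h was -0.23. 210047_at had signals of 54.7, 45.3, 24.7, 36.5, 48.5 and 41.1 and was 2.21-fold lower at 3 h, its lowest array. The fifth probe set of the gene, 237106_at, stayed under the floor on all 6 arrays. Which transcript ends these probe sets cover is not given in the sources used here, and SLC11A2 has several of them.

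CYBRD1, the apical ferric reductase (chromosome 2, 171522233 to 171558129), was near the floor. Its brighter probe set, 222453_at, had signals of 19.3, 26.9, 16.0, 25.3, 36.7 and 25.6 at 0, 1, 3, 6, 24 and 48 h, and the 3 h array was under the floor. The 24 h array was highest, 1.90-fold above 0 h and just short of the 2-fold limit. In the other probe set, 217889_s_at, signals ran from 12.4 at 48 h to 22.5 at 0 h and no coculture array exceeded 0 h. The 2 probe sets thus had opposite signs at 24 h, with log2 ratios of 0.93 and -0.13, and with 1 array per time neither direction can be set against an error.

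Among the basolateral export genes, ferroportin had the smallest span of all iron handling probe sets above a signal of 100. SLC40A1, which encodes it (chromosome 2, 189560590 to 189580786), had signals of 2930, 2999, 2975, 2816, 3005 and 2960 in the probe set 223044_at. Its highest array, at 24 h, was 1.07-fold above its lowest, at 6 h. The log2 span of 0.09 between them can be set beside the 8675 probe sets that exceeded a signal of 100 on all arrays, a limit chosen after seeing the data: their median span was 0.68, and 1 of them had a smaller span than SLC40A1. Under quantile normalization the span was 0.13 and 33 probe sets had a smaller one, and with arrays scaled to a common median it was 0.08 and 2 did. The dimmer probe set of the gene, 233123_at, was less steady, with signals of 133, 106, 166, 214, 210 and 121. It was highest at 6 and 24 h, 1.61-fold and 1.58-fold above 0 h, and back near the 0 h signal at 48 h.

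HEPH, the ferroxidase that works with ferroportin (chromosome X, 66162671 to 66268863), had signals of 2769, 3041, 2882, 2972, 2646 and 2180 in 203903_s_at. The 48 h array was lowest, at a log2 ratio of -0.35, and the span of 0.48 was below the median of the bright probe sets. 203902_at of the same gene was above the floor on 4 arrays and reached at most 20.2.

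**Figure D2:**
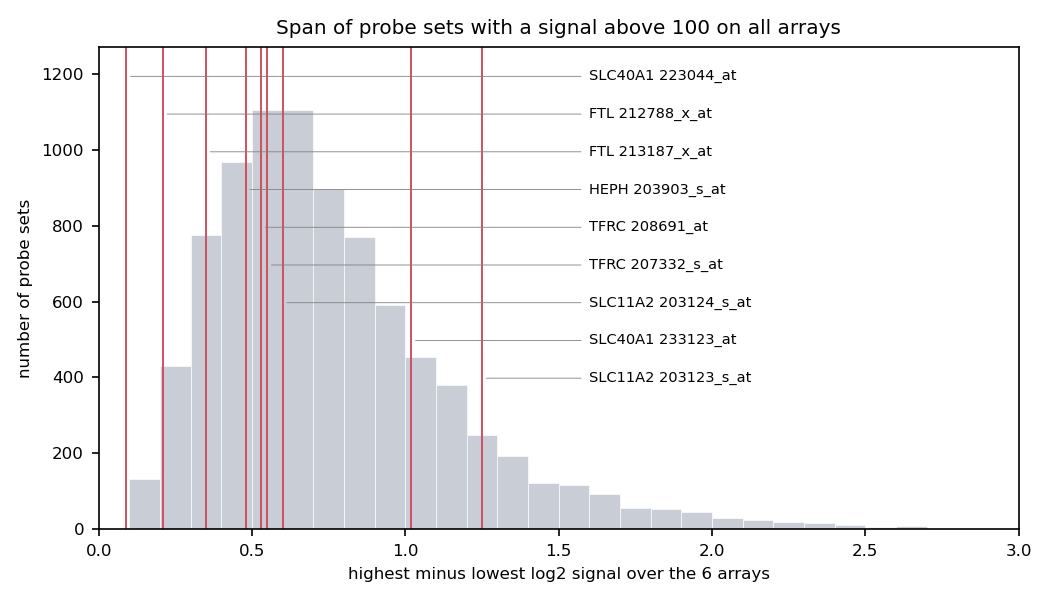
Distribution of the difference between the highest and the lowest log2 signal over the 6 arrays for the 8675 probe sets above a signal of 100 on every array (grey bars, number of probe sets), with the 9 iron handling probe sets among them as red lines. SLC40A1 223044_at lies at 0.09 at the left edge, FTL 212788_x_at at 0.21, and SLC11A2 203123_s_at furthest right at 1.25.

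Storage was represented by FTL, the ferritin light chain (chromosome 19, 48965309 to 48966879), whose stem-loop is shown above. Its brightest probe set, 212788_x_at, had signals of 7817, 7479, 7740, 6965, 8038 and 7576, a span of 0.21 with 154 of the 8675 bright probe sets below it. The second, 213187_x_at, had signals of 2206, 2183, 1955, 1958, 2181 and 2490, and its highest array was 48 h where the first was highest at 24 h. No FTL value was more than 1.13-fold from that at 0 h. Both probe sets have the suffix _x_at, which marks probes that can match related sequences, and ferritin has many processed pseudogenes, so their share of the signal was not tested.

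TFRC, the transferrin receptor (chromosome 3, 196049284 to 196082090), gave different answers from its bright and dim probe sets. In the brightest, 208691_at, signals were 4297, 5176, 5262, 6211, 5981 and 5241 at 0, 1, 3, 6, 24 and 48 h. All 5 coculture arrays were above the 0 h array, by at most 1.45-fold at 6 h. In 207332_s_at signals were 4268, 3886, 4465, 4851, 4147 and 3309, again highest at 6 h but below 0 h at 1, 24 and 48 h. The log2 ratios of these 2 probe sets at 48 h were 0.29 and -0.37.

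The probe set 237215_s_at of TFRC showed the largest ratios of any iron handling probe set. Its signals were 12.5, 43.0, 74.8, 117, 58.0 and 70.4. The 0 h array was under the floor and every coculture array was above it, by at least 2.65-fold, 4.61-fold, 7.19-fold, 3.57-fold and 4.34-fold in order of time. Against the 1 h array in place of 0 h, the log2 ratios were 0.80, 1.44, 0.43 and 0.71 at 3, 6, 24 and 48 h, so 1 of these 4 passed 2-fold. The probe set was picked out after its values were seen. 240686_x_at passed the floor at 3 h alone, with a signal of 23.1, and 237214_at stayed under it on all 6 arrays.

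HAMP, hepcidin (chromosome 19, 35282528 to 35285143), had a single probe set, 220491_at, with signals of 17.0, 28.1, 22.5, 36.6, 24.1 and 28.7. The 0 h array was lowest, close to the floor, and the 6 h array highest, 2.15-fold above 0 h. At 1, 3, 24 and 48 h it was 1.65-fold, 1.32-fold, 1.42-fold and 1.69-fold above 0 h. With the floor at the 65th percentile, a signal of 37.5, HAMP was under the floor on every array, and with the 1 h array as the baseline its log2 ratio at 6 h was 0.38. The genes most like HAMP over the 6 arrays, by Pearson correlation of log2 signal among 3360 genes that were above the floor on all arrays and spanned at least 1, were PALM at 0.963, ZNF814 at 0.948 and ZNF2 at 0.947. All 3 were lowest at 0 h and highest at 6 h, as HAMP was, and all share the same 6 arrays.

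ACTB has control probe sets near both ends of its transcript, and the 3' to 5' ratio of their signals, a measure of RNA integrity and labelling, was 51.2, 27.7, 22.9, 18.0, 27.9 and 37.0 at 0, 1, 3, 6, 24 and 48 h. The 0 h array had the highest ratio and the 6 h array the lowest. HAMP, TFRC 237215_s_at and TFRC 208691_at, the brightest probe set of that gene, were lowest at 0 h and highest at 6 h. SLC11A2 203125_x_at was lowest at 0 h too. The part of the ACTB ratio in these results was not tested. The same ratio for GAPDH ran from 3.54 at 6 h to 4.72 at 24 h, and the median signal of an array from 15.3 to 16.7. Of the 14 macrophage markers listed for THP-1 cells, 13 had a probe set, 6 were above the floor at 0 h and 5 to 8 later. LYZ, CD14, LAPTM5, ITGAM and AIF1 were above the floor on all 6 arrays, and LYZ had signals of 247, 296, 262, 199, 366 and 412. PTPRC, SPI1, MRC1 and FCGR1A stayed under the floor on all 6 arrays, and the summed signal of the list was 526 to 746 during coculture and 851 at 0 h. AIF1 was 8.37-fold lower at 48 h in its brightest probe set, and without it the sum was 516, 416, 480, 581 and 625 at 1, 3, 6, 24 and 48 h, against 491 at 0 h. Of 12 enterocyte markers, all were above the floor at 0 h. At 48 h 3 of them were lower, against 6.14% of all measured genes: sucrase-isomaltase (SI) 4.50-fold, lactase (LCT) 4.30-fold and FABP1 4.37-fold. CDX2 was 3.51-fold lower at 3 h and KRT20 4.04-fold higher at 24 h. VIL1 had a log2 ratio of -0.63 at 48 h in its brightest probe set, and the highest over its 4 probe sets was 1.06. The list's median log2 ratio was -0.55 at 24 h and -0.21 at 48 h, and the part of these markers in the iron gene results was not tested. Of 4 erythroid markers, 2 had a probe set and 1 passed the floor, at 6 h.

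**Figure D3:**
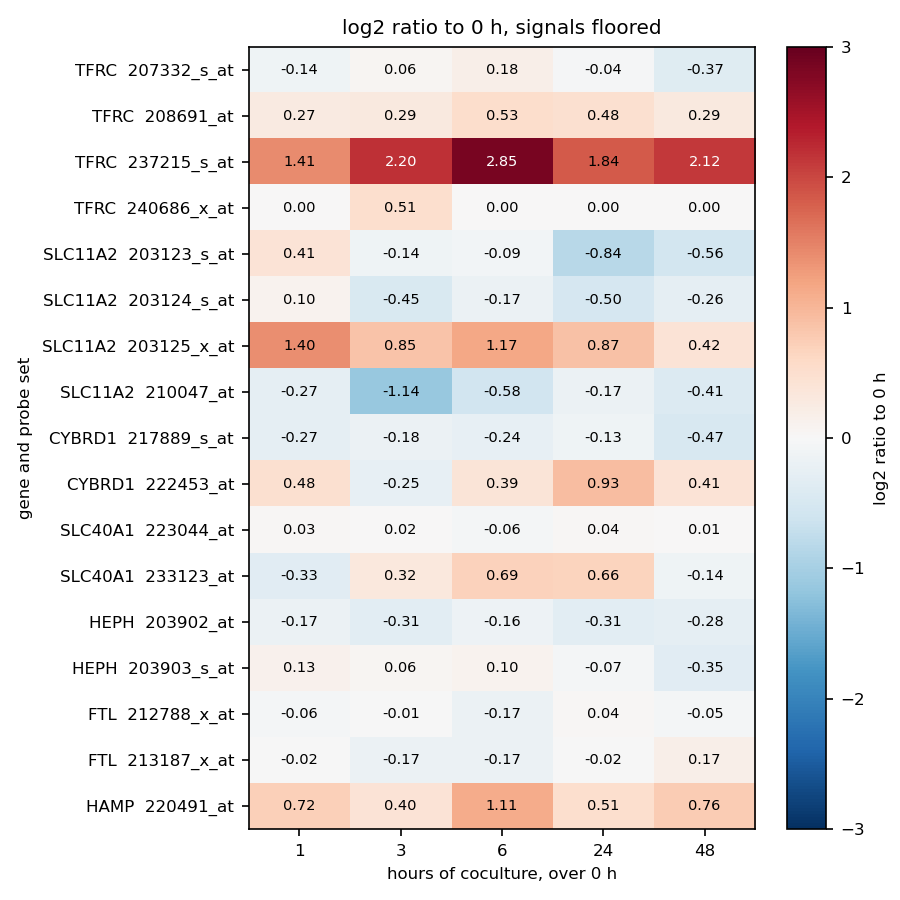
Log2 ratio to 0 h (colour and printed number) of the 17 iron handling probe sets at 1, 3, 6, 24 and 48 h, with signals under the floor set to it. TFRC 237215_s_at stands out with 1.41 to 2.85, and the brightest probe sets of SLC40A1, FTL and HEPH stay between -0.35 and 0.13.

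Counted by probe set, 17 of the 19 passed the floor on at least 1 array and 13 of these 17 were within 2-fold of 0 h at every time. At 1 h 2 of the 17 were at least 2-fold higher, against 2.82% of 28029 measured probe sets. At 3 h 1 was higher, against 4.99%, and 1 lower, against 3.14%. At 6 h 3 were higher, against 5.88%, and at 24 and 48 h 1 was, against 5.06% and 5.36%. None was lower at 1, 6, 24 or 48 h, against 1.54%, 5.60%, 5.05% and 4.84%. At some time 3 were higher, 1 lower and 4 either, against 12.0%, 11.0% and 22.9% of all measured probe sets. These calls came from 4 probe sets, none of which had a signal above 117 on any array: TFRC 237215_s_at, SLC11A2 203125_x_at, HAMP 220491_at and, for the fall at 3 h, SLC11A2 210047_at. Probe sets of 1 gene share its RNA and are not replicates.

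Other genes of iron metabolism were taken from 9 lists with 89 genes in all, of which 83 had a probe set and 78 were measured. At 1, 3, 6, 24 and 48 h, 2.56%, 6.41%, 3.85%, 3.85% and 3.85% of the 78 were at least 2-fold higher and 1.28%, 2.56%, 8.97%, 10.3% and 8.97% lower. Of all measured genes, 1.90%, 3.10%, 4.23%, 3.95% and 3.82% were higher and 1.44%, 3.52%, 6.45%, 6.14% and 6.14% lower. The median log2 ratio of the 78 was 0.01, 0.00, -0.14, -0.02 and -0.10, against 0.00, -0.02, -0.04, 0.00 and -0.01 for all measured genes. The lists were chosen with earlier results of these data known.

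Genes of the transferrin cycle and ferrireductases had 2 of 9 measured members lower at 6 h, 1 at 24 and 48 h, and none higher, against 6.45% of all measured genes lower at 6 h and 6.14% at 24 and 48 h. TF, the plasma carrier transferrin, had signals of 626, 539, 463, 366, 173 and 84.4 in its brightest probe set, with log2 ratios from -2.89 to 0.00 over its 4 probe sets at 48 h and -1.50 by their median. Without _x_at and _s_at probe sets the ratio was -0.16. STEAP1 and STEAP2, of the STEAP metalloreductase family, were 2.15-fold and 2.11-fold lower at 6 h. STEAP3, the endosomal ferrireductase that works with TFRC, was at -0.66 on the log2 scale at 6 h in its brighter probe set and at 0.21 in the other. TFR2, a receptor of hepatocytes and erythroid cells, was at -0.84 at 3 h, and at 0.20 by the median over its 3 probe sets. Over these probe sets its log2 ratios ran from -0.54 to 1.17 at 24 h and from -1.04 to 1.24 at 48 h. CP, ceruloplasmin, the plasma ferroxidase akin to hephaestin, was the single measured gene of 2 in the ferroxidase list and had signals of 218, 203, 218, 170, 97.6 and 79.1. Its log2 ratio at 48 h was -1.46, and -0.29 with the median over its 4 probe sets.

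Regulators of iron sensing and ferritin turnover stayed within 2-fold in their brightest probe sets. ACO1, which serves as iron regulatory protein when it lacks its cluster, had signals of 307, 351, 323, 275, 181 and 155 and reached a log2 ratio of -0.99 at 48 h, just short of the limit. NCOA4, the receptor that delivers ferritin to autophagosomes, had signals between 3885 at 24 h and 4370 at 3 h. For TAX1BP1, of the ferritin handling list, the highest ratio among its 3 probe sets passed 2-fold at 24 and 48 h. The brightest one did not. FBXL5, of the iron regulatory protein list, had log2 ratios of opposite sign in its 2 probe sets at 3 h, both short of 2-fold. None of 3 measured genes of iron regulatory protein control and none of 4 of ferritin handling was counted as higher or lower at any time. Of all measured genes, 21.9% were counted either way at some time, so lists this short would often hold none.

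Genes that control hepcidin in the liver had 20 measured members. At 1, 3, 6, 24 and 48 h 1, 2, 2, 2 and 1 of them were higher and 0, 1, 1, 3 and 2 lower, while 1.90% to 4.23% of all measured genes were higher and 1.44% to 6.45% lower. BMP2, a ligand of the pathway, had signals of 690, 1316, 2305, 2280, 1509 and 1487 and was 3.34-fold higher at 3 h. BMP6, the ligand that reports iron stores in mice, was under the floor at 0, 1 and 3 h and had signals of 29.3, 37.8 and 32.0 at 6, 24 and 48 h, so it was at least 2.33-fold higher at 24 h. Over its 3 probe sets the log2 ratio at 24 h ran from 0.00 to 1.22. With the floor at the 65th percentile, a signal of 37.5, it was 0.01. TMPRSS6, the protease that restrains hepcidin, had signals of 235, 241, 243, 210, 87.5 and 31.1. It was 7.55-fold lower at 48 h in that probe set, while the median over its 3 probe sets gave a log2 ratio of -0.33. The lowest ratio among them was also -0.33 at 3 and 6 h. Dim probe sets cannot fall past the floor, and the part of the floor in that median was not tested.

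ID1, a target of BMP signalling, had signals of 433, 1110, 128, 41.6, 40.3 and 33.6, higher at 1 h and lower from 3 h. NEO1, neogenin, a coreceptor partner in the pathway, was 2.01-fold lower at 24 h, with a log2 ratio of -0.16 by the median over its probe sets. IL6R, the receptor of interleukin 6, was 2.37-fold higher at 3 h. Over its 3 probe sets the log2 ratio ran from 0.00 to 1.24. IL6 itself had a signal above the floor at 1 h alone, at 22.9, and HFE, a membrane protein that senses iron in hepatocytes, had log2 ratios between -0.58 and 0.45 in the brightest of its 15 probe sets. Over all 15 the ratios of HFE ran from -1.41 to 0.77 at 3 h, and the lowest was -1.41 at 1, 6 and 24 h too. The 6 h value of HFE, -0.58, became 0.14 without _x_at and _s_at probe sets. The median log2 ratio of the list was between -0.05 at 6 h and 0.18 at 48 h, against -0.04 and -0.01 for all measured genes.

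Genes of the hypoxia inducible factors, known to control CYBRD1, SLC11A2 and SLC40A1 in the mouse intestine, had 1 of 7 measured members higher at 3 h and at 48 h and none lower, against 3.10% and 3.82% of all measured genes higher. That member was VHL, which targets the factors for breakdown and was under the floor at 0 h, with a signal of 5.42, and at 36.3 at 48 h. The median over its 2 probe sets gave a log2 ratio of 0.58 at 48 h, short of 2-fold. EPAS1, the factor HIF-2 alpha, had signals of 1467, 1638, 1781, 1987, 1752 and 2255, all 5 coculture arrays above the 0 h array by at most 0.62 on the log2 scale in that probe set. By the median over its 3 probe sets the 48 h value was 0.00. The lowest ratio among them was 0.00 at every time, the value of a probe set under the floor on all arrays. The median of the list was 0.23, 0.41, 0.44, 0.21 and 0.34 at 1, 3, 6, 24 and 48 h. That of all measured genes was 0.00, -0.02, -0.04, 0.00 and -0.01. VHL and HIF3A were under the floor at 0 h, and no cause of the difference was tested.

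Heme genes had 1, 2, 1, 1 and 1 of 16 measured members higher and 0, 0, 1, 1 and 1 lower in the same order, beside 1.90% to 4.23% and 1.44% to 6.45% of all measured genes. SLC46A1, a proton-coupled folate transporter also described as a heme carrier, had signals of 93.3, 284, 296, 156, 245 and 224 and was 3.18-fold higher at 3 h, although its log2 ratios ran from 0.07 to 1.67 over 4 probe sets. ALAS1, the first enzyme of heme synthesis, was 2.16-fold higher at 3 h. Of the other enzymes of that route, ALAD was 2.14-fold lower at 24 h, PPOX 2.89-fold at 6 h and UROS 2.99-fold at 48 h, each at 1 time. By the median over its probe sets the log2 ratio of UROS was -0.05. The highest ratio among PPOX probe sets was 0.00 at every time, the value of a probe set under the floor on all arrays. UROD, FECH and CPOX stayed within 2-fold at every time, with CPOX 1.64-fold above 0 h at 48 h. HMOX1, which breaks heme down and frees its iron, had log2 ratios between -0.72 at 3 h and -0.09 at 6 h.

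Genes of mitochondrial iron and iron-sulfur clusters had no member counted as higher and 1, 1, 2, 2 and 1 of 17 lower, against 1.44%, 3.52%, 6.45%, 6.14% and 6.14% of all measured genes. ISCA2, a cluster assembly factor, had signals of 587, 341, 276, 184, 274 and 344 and was 3.19-fold lower at 6 h. NFS1, the cysteine desulfurase that supplies the sulfur, was 2.40-fold lower at 24 h, and its 2 probe sets had log2 ratios of -2.48 and -1.27. FDX2, a ferredoxin of cluster assembly, was 2.41-fold lower at 48 h. CIAO1, of the cytosolic assembly route, was 2.19-fold lower at 1 h in its brightest probe set, with log2 ratios from -1.13 to 0.01 over all 3. The list's median log2 ratio was -0.26, -0.39, -0.51, -0.39 and -0.61, against medians of -0.04, -0.10, -0.14, -0.07 and -0.10 over the 10446 genes above the floor on all arrays. Of the secreted iron and heme binders, LCN2, which binds the iron carriers of bacteria, stayed under the floor on every array. HPX, hemopexin, was 2.10-fold lower at 48 h, and HP, haptoglobin, was under the floor at 6 h, at least 3.02-fold lower.

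**Figure D4:**
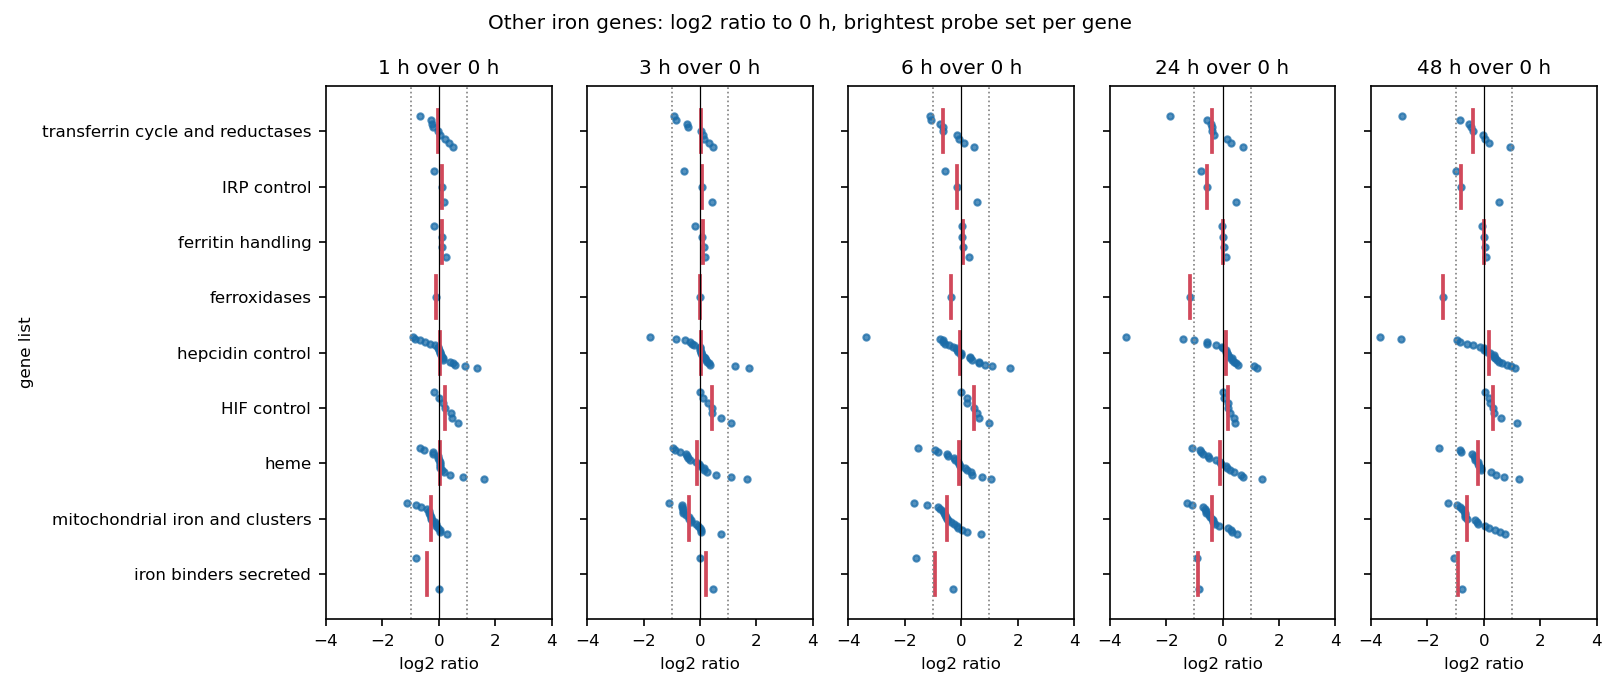
Log2 ratio to 0 h of every measured gene (blue points) of the 9 lists of other iron genes, 1 panel per coculture time, with the list median as a red bar and dotted lines at 2-fold. Ferritin handling genes lie close to 0 in every panel, ID1 and TMPRSS6 are the hepcidin control genes furthest to the left at 48 h, and the mitochondrial list has its median below 0 at each time.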

How the data were processed

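RNA of cocultured Caco-2 cells was measured on 6 Affymetrix HG-U133 Plus 2.0 arrays, 1 per time. The deposited values are linear signal intensities of 54675 probe sets, made with MAS5 per the submitters' processing notes. The sources used here do not give its version, scaling target or detection calls. The trimmed mean of each array, leaving out 2% at each end, was 93.8, so the arrays share a scale. Probe sets were named from the platform annotation: 41091 carried 1 gene symbol, 1801 several and 11777 none. The 62 control probe sets were left out of the 41091 but not out of the counts of several and none. Of the 41091, 41037 matched RefSeq (GRCh38.p14), which gave the gene positions and sequences.

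A floor of 16.2, at the 50th percentile of all values, replaced lower signals before log2. A probe set under the floor on both arrays thus has a log2 ratio of 0.00. Such probe sets can hold a median or range over probe sets near 0.00. A gene was called at a ratio of at least 2-fold to 0 h with the brighter array above the floor, and "at least" marks ratios whose dimmer array was at the floor. The rule was tested on simulated data, with changes well past 2-fold planted in bright probe sets. That test does not cover dim probe sets or changes close to 2-fold. The number of arrays limits the precision. Named genes were all 9 iron handling genes, up to 6 of each wider list with the largest changes past 2-fold, a fixed set of well-known iron genes, and the 3 genes most like HAMP. The iron genes, lists and markers were chosen with earlier results of these data known. Alternatives changed the floor, pseudocount, scaling, probe set choice, size limit and baseline. Python 3.11.15, numpy 2.4.6, pandas 2.3.3 and matplotlib 3.10.9 were used.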

Additional observations from a re-analysis of the deposited data

How the results depend on the processing

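With 1 array per time no array could be left out other than by changing the baseline, no interval can be given, and signals near the floor of 16.2 limit HAMP, CYBRD1 and the dim probe sets of TFRC and SLC11A2. No paired analysis was possible because each time has 1 array. Of 594 single values under alternatives, 39 had the opposite sign to the reported value. Of these 39, 1 was past 2-fold as reported: SLC11A2 203125_x_at at 6 h, -0.23 against the 1 h array. With the median over its probe sets, SLC11A2 turned to 0.37, 0.69 and 0.39 at 3, 6 and 24 h. Of 176 counts, 110 kept the same number and 136 stayed within 1.5 times, and 8 of 39 medians changed sign. No iron handling gene was higher at 6 h at a floor on the 65th percentile (0 of 5 measured), with the floor as pseudocount (0) or against the 1 h array (0). When a gene took the median of its probe sets, 1, 1, 2, 1 and 1 of the 7 were higher at 1, 3, 6, 24 and 48 h, TFRC then following 237215_s_at, and the median log2 ratio at 24 h became 0.39. Leaving out _x_at and _s_at probe sets made it 0.26, and 1 of 6 genes, SLC11A2, was lower at 3 h. At 1.5-fold 1 gene was higher at 1, at 24 and at 48 h.

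For the other iron genes, lowering the floor to the 30th percentile left 81 measured, with 4, 5, 5 and 5 higher at 1, 6, 24 and 48 h. Of the 78 at 1.5-fold 5, 10, 6 and 11 were higher at those times, and 8, 12, 19, 17 and 22 were lower at 1, 3, 6, 24 and 48 h. Against the 1 h array 3, 1 and 0 were higher at 3, 6 and 48 h, and 1 and 3 lower at 3 and 6 h. The median of probe sets, over 74 genes, gave 6 and 5 higher at 24 and 48 h, and 0 and 4 lower at 1 and 48 h. Leaving out _x_at and _s_at probe sets left 60 genes, with 1, 6 and 5 higher at 1, 24 and 48 h, and 0, 1 and 4 lower at 1, 3 and 48 h. The cause of these moves was not tested. TFRC 237215_s_at kept log2 ratios above 0 throughout, from 0.20 to 1.64 at the 65th percentile floor and from 1.04 to 2.21 with the pseudocount.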
